A study of Mus musculus with 10 samples.

Results

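The suppressor of cytokine signaling (SOCS) family was followed in CT26 tumors that had been taken out before poly(I:C) treatment. The 8 members, Socs1 to Socs7 and Cish, were found by gene name among the 36009 genes of the count table, each in 1 row. The tumors were grown from CT26, a colorectal carcinoma line of the mouse, under the skin of female wild-type BALB/c mice whose age the labels do not give. Most of each tumor was cut away, the resected piece was sequenced as polyA RNA, and a hydrogel loaded with poly(I:C), a synthetic double-stranded RNA, was then placed on what remained. All 10 libraries are therefore from untreated tumors, and they are grouped by what the tumor did later: 6 came from responders, in which it regressed completely, and 4 from non-responders, in which it grew without delay. The model is 1 transplanted cell line in 1 inbred strain, and the mice were selected by outcome. Libraries of responders held 29065126 to 38042544 estimated counts and those of non-responders 23374649 to 32986456. Non-responder 1 stood apart, with the lowest Socs1 and the highest Socs5 and Socs7 of the 10 tumors, and these members are given with and without it.

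SOCS proteins are brakes on cytokine receptors. A cytokine activates Janus kinases (JAKs) on its receptor, the JAKs phosphorylate STAT transcription factors, and the STATs switch on target genes that include SOCS genes, so that the signal limits itself. Each member carries an SH2 domain, which binds phosphorylated tyrosines, and a SOCS box, which recruits elongins and a cullin ubiquitin ligase. SOCS1 and SOCS3 can also block the kinase itself. In tumors the family is known mainly for damping interferon (IFN) signaling in tumor cells and cytokine signaling in lymphocytes. Socs1, Socs2, Socs3 and Cish are the members best known as cytokine-induced genes, and Socs4 to Socs7 are better known for ties to growth factor and insulin receptors.

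The promoters of 3 cytokine-induced members held DNA letters of the kind that STATs and IFN regulatory factors recognize, and these are printed as a description. Whether they bear on the levels in these tumors was not tested. Sequences are from RefSeq on GRCm38.p6, in windows of 250 bases before to 50 bases after a gene's start, and 4 members had a window (Socs1, Socs3, Socs4 and Cish). The motifs searched on both strands were TTC and GAA with 3 or with 4 free bases between them, the palindromes bound by STATs, and GAAA repeated after 2 free bases, the core of an IFN-stimulated response element. Capitals mark the matches, and each sequence reads 5′ to 3′ on the strand of the gene.
Socs1, chr16:10785577-10785646, minus strand: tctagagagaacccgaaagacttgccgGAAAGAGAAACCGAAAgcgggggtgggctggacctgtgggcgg
Socs3, chr11:117969477-117969546, minus strand: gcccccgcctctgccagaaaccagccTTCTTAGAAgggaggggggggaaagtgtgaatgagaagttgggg
Cish, chr9:107296654-107296683, plus strand: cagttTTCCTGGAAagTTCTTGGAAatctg
The Socs1 window held 2 matches to the GAAA repeat that overlap each other, between 83 and 68 bases upstream of the start, and no STAT palindrome. The Socs3 window held 1 STAT palindrome with 3 free bases, between 154 and 146 bases upstream. The Cish window held 2 such palindromes side by side, within the first 20 bases after the RefSeq start. Another annotation of this assembly (GENCODE M21) starts both Socs3 and Cish further upstream, so that these matches lie inside the genes as it draws them. None of the 3 motifs was in the Socs4 window. Among 32851 RefSeq windows of 300 bases, 8.3% held the palindrome with 3 free bases, 6.95% that with 4 and 3.44% the GAAA repeat, so each motif is common. A match describes these letters and no more, and where none was found the letters are only missing from this window.

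Estimates for responders were higher for 4 members and lower for the other 4, and none of the 8 passed the test (edgeR quasi-likelihood test, Benjamini-Hochberg adjusted p under 0.05 over 16041 genes tested). All 8 had enough counts to be tested. Over all genes, 8.06% passed, so a count of 0 among 8 members is close to the background. At an unadjusted p under 0.05 there were 3 members, Socs1 (higher) and Socs5 and Socs7 (lower), against 29.1% of all genes. The groups did not overlap for 1 member, Socs7, against 10.4% of all genes. DESeq2 passed 1 member, Socs1, against 16.9% of the genes it tested, and limma-voom passed 0 members, against 6.75%. The median log2 fold change (responder minus non-responder) was -0.01 over the 8 members and -0.01 over all genes tested. These counts are near the background of all genes, and the members' estimates lay on both sides of 0.

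**Figure D1:**
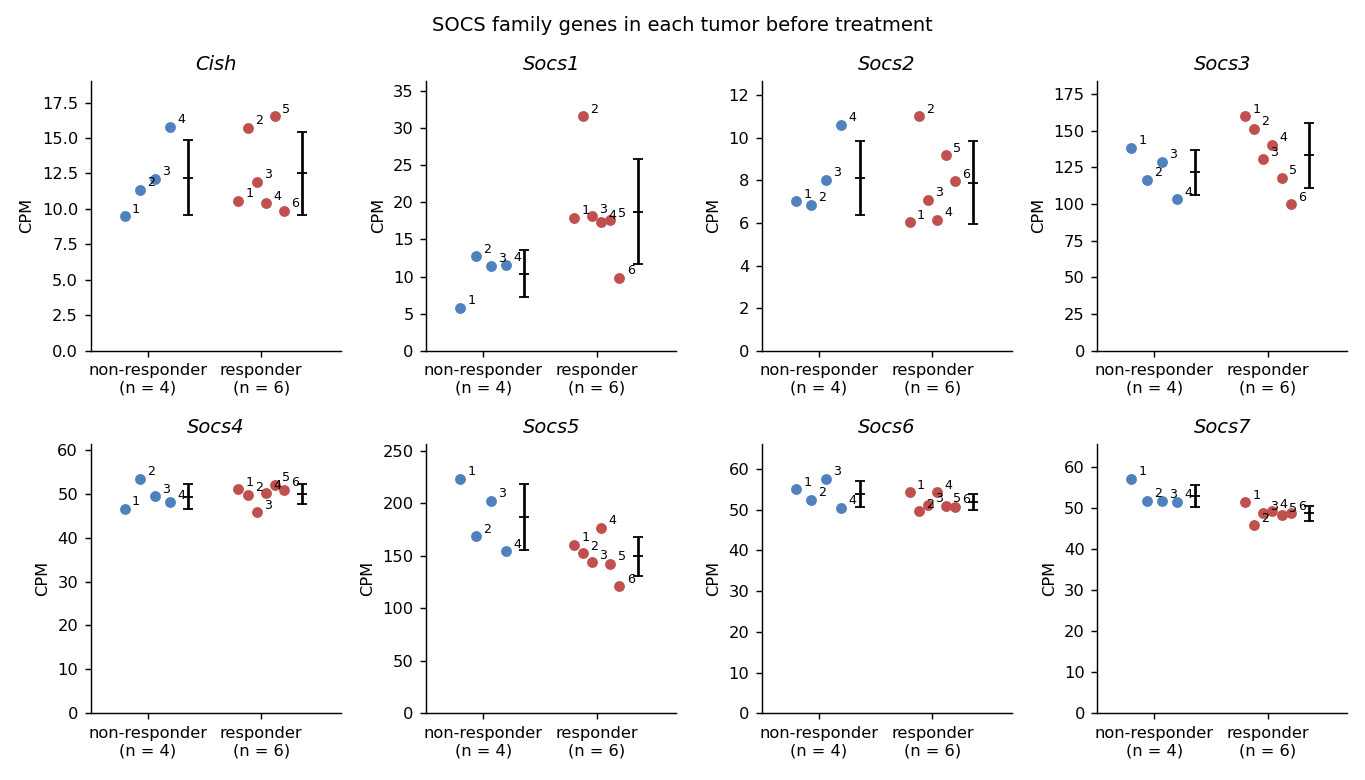
Level of the 8 SOCS family genes in each tumor in CPM (counts scaled to the size of the library), one panel a gene, with the y axis from 0; numbered points are tumors and bars are the mean ± SD of 4 non-responders and 6 responders. For Socs1, 5 of the 6 responders lay above all 4 non-responders, and for Socs7 all 4 non-responders lay above all 6 responders, while the groups overlapped for the other members.

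Socs1 (ENSMUSG00000038037, GRCm38 chr16:10782240-10785536, minus strand) encodes a direct JAK inhibitor and is a feedback gene of IFN-gamma. Its level, in CPM scaled by the trimmed mean of M values (TMM), was 17.9, 31.6, 18.1, 17.3, 17.6 and 9.84 in responders 1 to 6, while non-responders 1 to 4 had 5.77, 12.7, 11.5 and 11.6. Responder 2 was the highest tumor and non-responder 1 the lowest, and responder 6 was the only responder inside the range of the non-responders. The means were 18.7 ± 7.06 CPM (SD, n = 6) and 10.4 ± 3.13 CPM (SD, n = 4). The log2 fold change was 0.85 (standard error, s.e., 0.29, 95% interval 0.21 to 1.49), or 1.80-fold, with an edgeR p of 0.0142 and an adjusted p of 0.0866. Its estimate was further from 0 than that of 95.4% of the genes tested, and its spread over the 10 tumors, 5.48-fold from lowest to highest, was wider than that of 96.1% of them.

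The Socs1 estimate was positive in every alternative run, but whether it passed changed with the tool. Leaving out each tumor in turn gave log2 fold changes of 0.63 to 0.98, each with an unadjusted edgeR p under 0.05 and adjusted p from 0.0525 to 0.194. DESeq2 gave the same size of change, 0.85, with an adjusted p of 0.0187. Without non-responder 1 the edgeR estimate was 0.66 (adjusted p = 0.194), and without responder 2 it was 0.63 (adjusted p = 0.135).

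Socs3 (ENSMUSG00000053113, GRCm38 chr11:117966079-117970047, minus strand) encodes the inhibitor that binds the shared receptor of the IL-6 family, gp130. It ran from 99.9 CPM in responder 6 through a median of 135.5 to 159.9 CPM in responder 1, and was 138.3, 116.7, 129.0 and 103.2 CPM in non-responders 1 to 4. The groups overlapped across most of their range. The means were 133.4 ± 22.1 (SD, n = 6) and 121.8 ± 15.3 CPM (SD, n = 4). The log2 fold change was 0.13 (s.e. 0.13, 95% interval -0.14 to 0.41, edgeR adjusted p = 0.523). As a fold change the interval was 0.905 to 1.33. Whether Socs1 and Socs3 differed in their change was not tested.

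Cish and Socs2 are the members most tied to STAT5, the STAT of IL-2, IL-15, growth hormone and prolactin. Cish (ENSMUSG00000032578, GRCm38 chr9:107296026-107302784, plus strand), which limits IL-2 and IL-15 signaling in T and natural killer (NK) cells, ran from 9.86 through a median of 11.2 to 16.5 CPM in responders and was 9.49, 11.3, 12.1 and 15.8 CPM in non-responders 1 to 4. Its 2 groups covered nearly the same range, with a log2 fold change of 0.03 (s.e. 0.18, 95% interval -0.36 to 0.43, edgeR adjusted p = 0.926). Socs2 (ENSMUSG00000020027, GRCm38 chr10:95385362-95417180, minus strand), which limits growth hormone signaling, ran from 6.03 through 7.52 to 11.0 CPM in responders and was 7.03, 6.87, 8.02 and 10.6 CPM in non-responders 1 to 4. Its log2 fold change was -0.04 (s.e. 0.19, 95% interval -0.45 to 0.37, edgeR adjusted p = 0.903). For both genes the sign of the estimate turned when certain tumors were left out, so no direction is given. Cish shares 479 bases of exon with an antisense gene, Gm17041, which was not among the genes counted, so its level is not known. Cish also shares 261 bases with Gm17040, which had 0 to 3 counts in a tumor. Whether counting used the strand is not stated, so antisense reads cannot be told apart from those of Cish.

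Socs5 (ENSMUSG00000037104, GRCm38 chr17:87107679-87137839, plus strand), which has been tied to turnover of the epidermal growth factor receptor, was lower in responders by estimate. Its level was 160.6, 152.6, 143.9, 177.0, 142.4 and 121.1 CPM in responders 1 to 6, while non-responders 1 to 4 had 223.4, 168.6, 202.6 and 154.6 CPM. Non-responders 1 and 3 lay above every responder, and 4 of the 6 responders lay below every non-responder. The means were 149.6 ± 18.9 (SD, n = 6) and 187.3 ± 31.4 CPM (SD, n = 4). The log2 fold change was -0.32 (s.e. 0.12, 95% interval -0.58 to -0.07), with an edgeR p of 0.017 and an adjusted p of 0.0949. Without non-responder 1 it was -0.22 (edgeR adjusted p = 0.27).

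Socs7 (ENSMUSG00000038485, GRCm38 chr11:97362551-97398542, plus strand), tied to insulin receptor substrates, had a small difference by estimate. Its level was 51.5, 45.9, 48.8, 49.3, 48.3 and 48.8 CPM in responders 1 to 6, while non-responders 1 to 4 had 57.2, 51.9, 51.7 and 51.6 CPM. The groups did not overlap, but responder 1 (51.5) and non-responder 4 (51.6) were almost level. The means were 48.8 ± 1.79 (SD, n = 6) and 53.1 ± 2.74 CPM (SD, n = 4). The log2 fold change was -0.12 (s.e. 0.04, 95% interval -0.22 to -0.02), with an edgeR p of 0.0186 and an adjusted p of 0.0998. Without non-responder 1, the highest tumor, it was -0.08 (edgeR adjusted p = 0.322).

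Socs4 and Socs6 were the most even members. Socs4 (ENSMUSG00000048379, GRCm38 chr14:47276931-47296102, plus strand), the closest relative of Socs5, ran from 45.7 through 50.5 to 52.1 CPM in responders and was 46.6, 53.3, 49.4 and 48.0 CPM in non-responders 1 to 4. Its log2 fold change was 0.02 (s.e. 0.05, 95% interval -0.09 to 0.13, edgeR adjusted p = 0.854). Socs6 (ENSMUSG00000056153, GRCm38 chr18:88665224-88927481, minus strand), tied to the stem cell factor receptor KIT, ran from 49.5 through 51.0 to 54.3 CPM in responders and was 54.9, 52.4, 57.5 and 50.4 CPM in non-responders 1 to 4. Its log2 fold change was -0.05 (s.e. 0.05, 95% interval -0.16 to 0.05, edgeR adjusted p = 0.472). As fold changes the intervals were 0.939 to 1.09 for Socs4 and 0.897 to 1.03 for Socs6, and only Socs7 had a similarly narrow one.

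**Figure D2:**
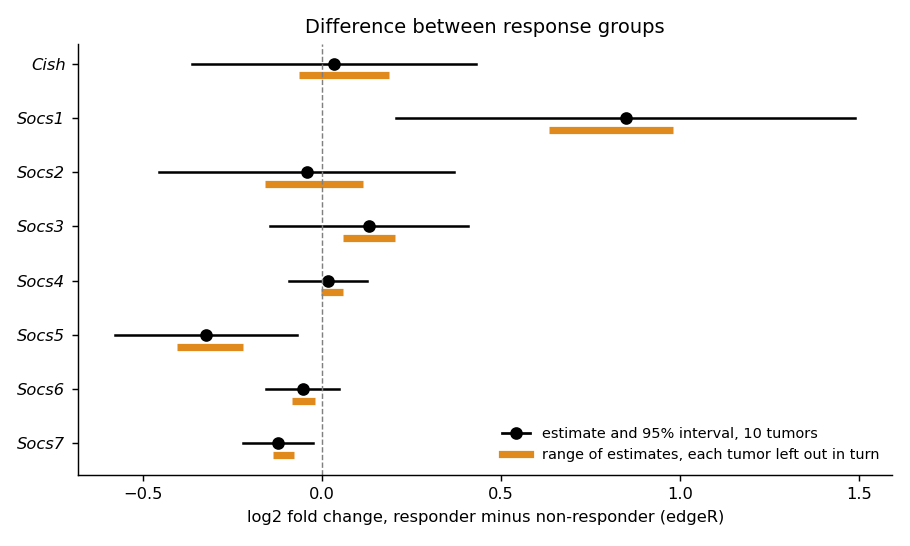
Log2 fold change of each SOCS family gene, responder minus non-responder, by edgeR on 10 tumors; points and black lines are the estimate and its 95% interval, and orange bars run from the lowest to the highest estimate when each tumor is left out in turn. The Socs1 bar stays between 0.63 and 0.98, the Socs5 bar between -0.41 and -0.22 and the Socs7 bar between -0.14 and -0.08, while the bars of Socs2, Socs4 and Cish cross 0.

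The members also differed in how much they varied between tumors. The log2 CPM SD within a group was 0.184 to 0.531 for Socs1, Socs2, Socs3 and Cish and 0.0532 to 0.242 for Socs4 to Socs7. From the lowest to the highest of the 10 tumors, the cytokine-induced members spanned 1.60 to 5.48-fold and the others 1.16 to 1.84-fold, with Socs5 alone among the latter reaching above 1.25-fold. Socs5 (1.84-fold) spanned slightly more than Socs2 (1.83-fold), Cish (1.74-fold) and Socs3 (1.60-fold), and only Socs1 spanned more than Socs5. Counts behind these values were lowest for Socs1 (143 in the lowest tumor), Socs2 (174) and Cish (235), and at least 1140 in each tumor for Socs3 to Socs7, so counting error is larger for the former genes.

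**Figure D3:**
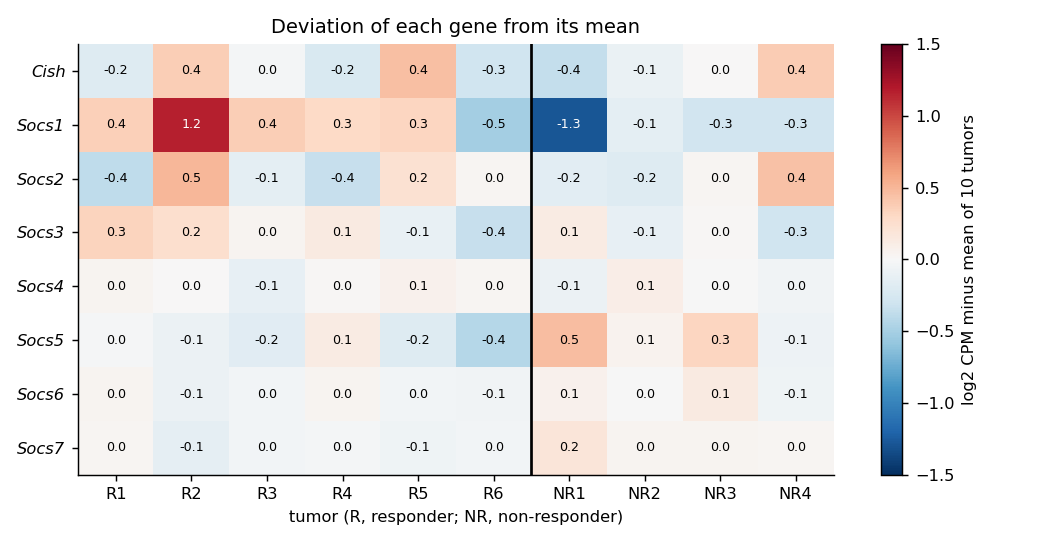
Deviation of each gene's log2 CPM from its mean over the 10 tumors, with responders (R1 to R6) left and non-responders (NR1 to NR4) right of the black line; red is above and blue below the mean, and numbers are rounded to 1 decimal. The Socs1 row holds the widest deviations, from non-responder 1 (lowest, 5.77 CPM) to responder 2 (highest, 31.6 CPM), and the Socs4, Socs6 and Socs7 rows are nearly flat.

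Compared per length, Socs3 and Socs5 made up most of the family's RNA. In CPM per kb of merged exon, averaged over 10 tumors, the level was 44.5 ± 6.78 for Socs3, 25.7 ± 4.69 for Socs5, 7.22 ± 0.344 for Socs4, 6.95 ± 0.419 for Socs7, 5.29 ± 2.42 for Socs1, 4.64 ± 0.224 for Socs6, 1.93 ± 0.413 for Cish and 0.839 ± 0.184 for Socs2 (SD, n = 10). Socs3 lay above Socs5 and Socs5 above Socs4 in 10 of 10 tumors. Neighbors in the middle were not ordered the same way in every tumor: Socs4 lay above Socs7 in 7 of 10, Socs7 above Socs1 in 9 of 10 and Socs1 above Socs6 in 5 of 10. Cish lay below Socs6 and above Socs2 in all 10 tumors. With the longest transcript as the length, Socs6 moved from the sixth to the third place (8.72 CPM per kb), and the order of the others stayed. Division by length assumes counts that grow with length, and how the deposited counts were scaled is not given. In CPM without the division, mean Socs5 lay above mean Socs3 in responders (149.6 against 133.4) and in non-responders (187.3 against 121.8).

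Of 28 pairs of members, none had a correlation over the 10 tumors that passed after adjustment over the pairs. Correlations over the 10 tumors, and their permutations, pool both response groups, so any difference between the groups is part of them. The strongest were Socs1 with Socs7, Socs2 with Cish, and Socs5 with Socs6. In each pair, r was also taken without the 2 tumors farthest from the median of the gene named first. Leaving out extremes narrows the range of that gene and can weaken r by itself. For Socs1 and Socs7 Pearson's r was -0.848 (permutation p = 0.00446, adjusted p = 0.0585) and Spearman's rho -0.709 (permutation p = 0.0265, adjusted p = 0.186). Here r was -0.338 without non-responder 1 and responder 2, and -0.519 within the 6 responders (exact permutation p = 0.292). For Socs2 and Cish r was 0.829 (permutation p = 0.00464, adjusted p = 0.0585) and rho 0.709 (permutation p = 0.026, adjusted p = 0.186). It was 0.662 without responder 2 and non-responder 4, and 0.799 within the 6 responders (exact permutation p = 0.0708). For Socs5 and Socs6 r was 0.788 (permutation p = 0.00627, adjusted p = 0.0585) and rho 0.794 (permutation p = 0.00891, adjusted p = 0.158), with an r of 0.872 without non-responder 1 and responder 6 and of 0.657 within responders (exact permutation p = 0.158). Within the 6 responders, the strongest r of the 28 pairs was -0.899, for Socs2 and Socs7 (exact permutation p = 0.00278). This p was not adjusted over the pairs. Over the 10 tumors, Socs2 and Socs7 had an r of -0.408 (permutation p = 0.245). With 4 non-responders no value within that group was computed.

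The genes around the family were counted in 10 lists of the JAK-STAT pathway. Of 119 genes 113 were tested, and 12 passed, or 10.6% against 8.06% of all genes. Of these, 9 were higher in responders, against 4.71% of all genes in that direction, and 3 were lower, against 3.35%. Estimates were higher in responders for 82 and lower for 31, with a median log2 fold change of 0.12. The count depended on single tumors: it was 0 without non-responder 4, 1 without non-responder 1 or responder 3, 4 without responder 2 or 5, 5 without responder 1 or non-responder 3, 7 without responder 6, 19 without responder 4 and 21 without non-responder 2, and DESeq2 gave 32. The direction of each of the 12 was the same in every alternative run.

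Among the 21 ligands, 15 were tested and 1 passed. Prl, the hormone prolactin, whose receptor signals through STAT5 to Cish and Socs2, was 7.13 to 14.2 CPM in responders and 21.1 to 30.3 CPM in non-responders, with no overlap. Its log2 fold change was -1.32 (s.e. 0.16, edgeR adjusted p = 0.0134). Estimates of Cish and Socs2, with their intervals, are given above, and a link of Prl to either gene was not tested. The prolactin receptor gene Prlr was barely detected, with 7 to 24 counts in a tumor and a log2 fold change of -0.003. Ifng, an inducer of Socs1, had 1.67 to 4.89 CPM in responders and 0.202 to 2.04 CPM in non-responders. The log2 fold change of Ifng was 1.33 (s.e. 0.49, edgeR adjusted p = 0.102) on as few as 5 counts. Il6, an inducer of Socs3, had a log2 fold change of -0.21 (s.e. 0.33, edgeR adjusted p = 0.712). Too low to be tested were Ifnb1, Il2, Il13, Il21, Il12a and Lep.

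All 28 receptors were tested, 2 passed and 23 had higher estimates, with a median of 0.27. Csf2ra, the alpha chain of the GM-CSF receptor, rose by a log2 fold change of 0.75 (s.e. 0.13, edgeR adjusted p = 0.0229) and Il10ra, a chain of the IL-10 receptor, by 0.65 (s.e. 0.16, edgeR adjusted p = 0.0401), and neither overlapped between groups. The receptor chains that SOCS1 and SOCS3 act beside, Ifngr1 (0.16, s.e. 0.07, edgeR adjusted p = 0.137) and Il6st, which encodes gp130 (-0.06, s.e. 0.05, edgeR adjusted p = 0.472), did not pass. None of the 4 JAK kinases passed, with log2 fold changes of 0.21 for Tyk2, 0.21 for Jak3, 0.11 for Jak2 and 0.07 for Jak1 (edgeR adjusted p from 0.0632 to 0.411).

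Of the STATs, Stat5b passed. It was 71.6 to 78.2 CPM in responders and 64.6 to 69.1 CPM in non-responders, with no overlap and a log2 fold change of 0.17 (s.e. 0.04, edgeR adjusted p = 0.0321). Stat3, the STAT of the IL-6 family (0.13, edgeR adjusted p = 0.291), and Stat5a (0.15, edgeR adjusted p = 0.155) did not pass.

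Of 15 other negative regulators of the pathway 2 passed, the phosphatase genes Ptpn6 (SHP-1; log2 fold change 0.54, s.e. 0.14, edgeR adjusted p = 0.0408) and Ptprc (CD45; 0.60, s.e. 0.15, edgeR adjusted p = 0.0413), both higher in responders without overlap. Both are genes of blood cells, and Ptprc is also a leukocyte marker below. Usp18, an IFN-induced inhibitor of the type I IFN receptor, had an estimate of 0.47 (s.e. 0.23, edgeR adjusted p = 0.208) and Ptpn2, a JAK and STAT phosphatase, one of 0.04 (s.e. 0.05, edgeR adjusted p = 0.613).

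None of the 8 partners of the SOCS box passed, and their median was -0.004. Nedd8, the modifier that activates cullins, had a log2 fold change of -0.12 (s.e. 0.03, edgeR adjusted p = 0.053) with no overlap between groups, Cul2 one of 0.12 (s.e. 0.04, edgeR adjusted p = 0.0935) and Cul5, the main cullin of SOCS proteins, one of -0.02 (s.e. 0.03, edgeR adjusted p = 0.693).

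Of the 10 growth factor partners, which Socs4 to Socs7 are tied to, 4 passed in opposite directions. Grb2, an adaptor of receptor tyrosine kinases, was higher (log2 fold change 0.28, s.e. 0.05, edgeR adjusted p = 0.0263), as was Kit, the stem cell factor receptor (0.68, s.e. 0.18, edgeR adjusted p = 0.0434). Irs1, an insulin receptor substrate, was lower (-0.41, s.e. 0.09, edgeR adjusted p = 0.033), as was Egfr, the epidermal growth factor receptor (-0.46, s.e. 0.11, edgeR adjusted p = 0.0334). Kit is also a mast cell marker, and of the 5 others Cma1 passed (edgeR adjusted p = 0.0403), all 5 with higher estimates.

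Target genes of STAT3 and STAT5 were counted beside the feedback genes that the same STATs drive. Of 10 STAT3 targets none passed, 9 had higher estimates and the median was 0.21, with Saa3 at 0.94 (s.e. 0.28, edgeR adjusted p = 0.0563) and Pim1 at 0.42 (s.e. 0.14, edgeR adjusted p = 0.0717). Of 10 STAT5 targets, 1 passed, the survival gene Bcl2 (0.42, s.e. 0.09, edgeR adjusted p = 0.0283), and the median was 0.05. Of IFN-gamma-induced genes, Ciita, the master activator of MHC class II, passed (1.05, s.e. 0.27, edgeR adjusted p = 0.0423), and Irf1 had 0.62 (s.e. 0.27, edgeR adjusted p = 0.158).

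**Figure D4:**
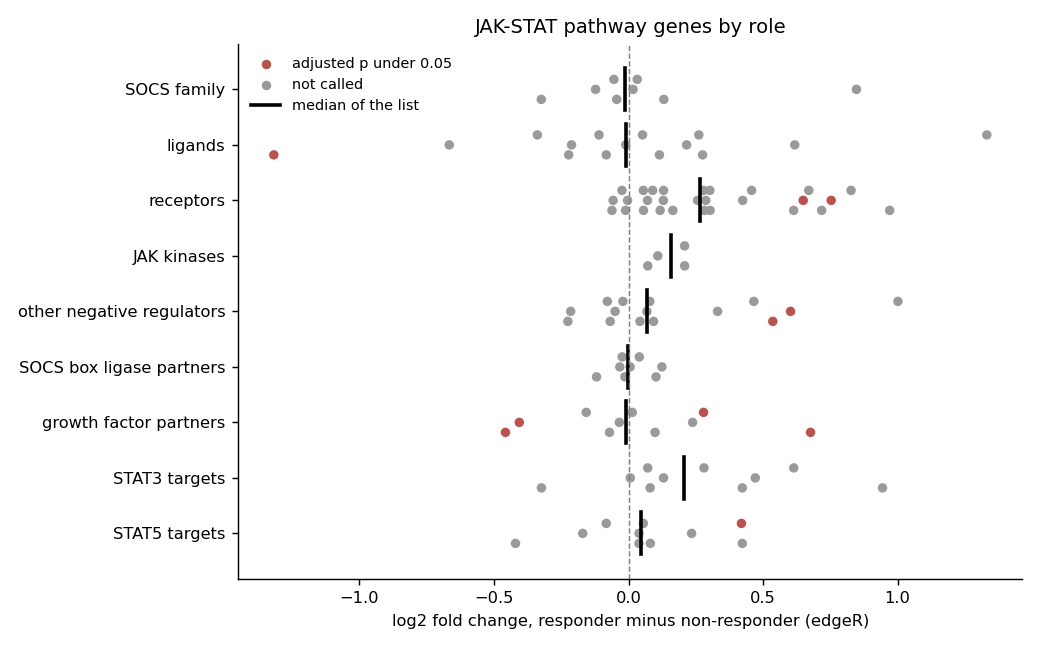
Log2 fold change (responder minus non-responder, edgeR) of the tested genes of the SOCS family and of 8 JAK-STAT pathway lists; each point is a gene, red where the adjusted p is under 0.05, and black bars are list medians. The SOCS family median lies at -0.01, the receptor median at 0.27 and the STAT3 target median at 0.21.

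The amount of a feedback gene seen beside its targets overlapped between the groups for Socs3, Cish and Socs2. For each tumor, the mean log2 CPM of the 10 STAT3 targets was taken from the log2 CPM of Socs3. The difference was 1.45, 1.10, 1.13, 1.33, 1.09 and 0.994 in responders 1 to 6, while non-responders 1 to 4 had 1.52, 1.35, 1.19 and 1.23. Their means were -0.14 apart (responder minus non-responder), while the target mean itself was 5.86 ± 0.164 log2 CPM (SD) over 6 responders against 5.60 ± 0.157 (SD) over 4 non-responders. For Cish and Socs2 beside STAT5 targets, the group means were -0.03 and -0.12 apart, again with overlap.

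**Figure D5:**
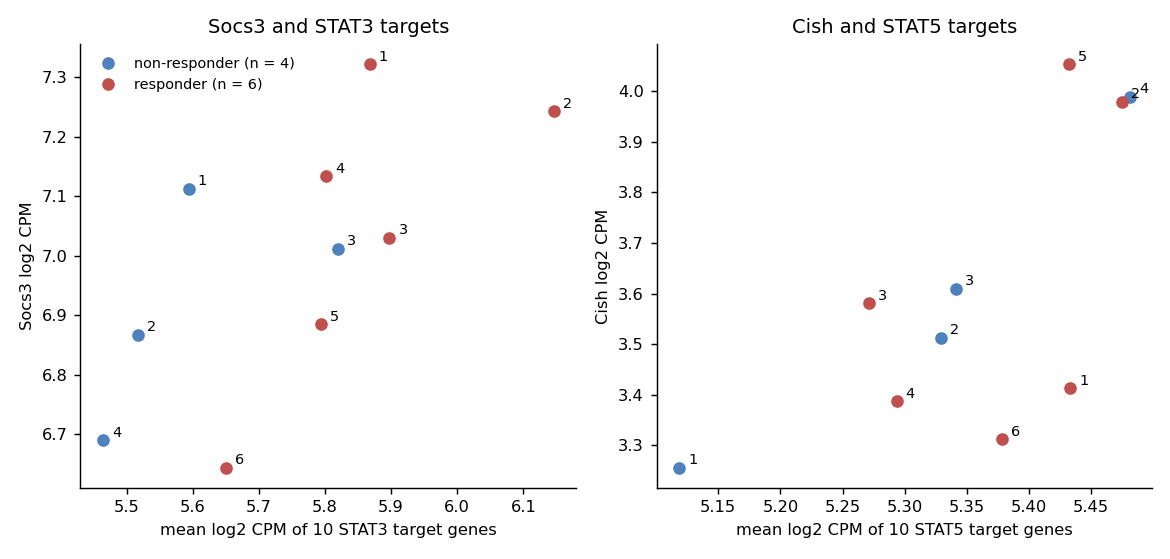
Log2 CPM of Socs3 against the mean log2 CPM of 10 STAT3 target genes (left) and of Cish against that of 10 STAT5 targets (right), 1 numbered point a tumor, blue for 4 non-responders and red for 6 responders; the axes do not start at 0. In both panels the heights of the groups overlap, with Socs3 highest in responder 1 and Cish highest in responder 5.

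The genes whose log2 CPM followed a cytokine-induced member most closely over the 10 tumors were sought among 13733 genes with an average of at least 1 CPM. For Socs1 they were Rtraf (Pearson's r 0.955), Vdac2 (0.950) and Haghl (0.939), none of them a gene of the pathway lists. For Socs3 they were Bdkrb1 (0.963), Sbno2 (0.907) and Flot1 (0.860), for Cish Gnptg (0.924), Meis1 (0.914) and Flrt3 (0.907), and for Socs2 Snx22 (0.904), Myh11 (0.885) and Polr2i (0.855). With the group means taken out, these values were 0.855 to 0.966. They are the highest of many values over few tumors that share a platform and a tumor type, and they are given as a description.

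Marker genes of cell types were compared between the same 2 groups. All 8 leukocyte markers were higher in each responder than in any non-responder, 6 of them passing, and their summed level was 1471 to 2246 CPM against 884.2 to 1348 CPM. Of 8 macrophage markers 5 passed (summed 2919 to 4343 against 2052 to 2761 CPM). Of 9 CD8 T and NK cell markers 3 passed (192.5 to 413.2 against 41.7 to 184.9 CPM), and 0 of 7 T cell markers passed though all 7 had an unadjusted edgeR p under 0.05 (51.2 to 179.4 against 32.0 to 63.3 CPM). Of the other lists, 1 of 5 inflammatory monocyte, 1 of 5 adipocyte and 2 of 6 skeletal muscle markers passed as higher, 1 of 6 neutrophil markers passed as lower, and 0 of 6 fibroblast and 0 of 6 endothelial markers passed, nor had any of these 12 an unadjusted edgeR p under 0.05. All 5 tested adipocyte and all 6 skeletal muscle markers were higher with an unadjusted edgeR p under 0.05, as were 3 inflammatory monocyte markers. Of the neutrophil markers, Csf3r was also higher at that threshold (log2 fold change 0.42). The 5 others tested had lower estimates, and the marker that passed was Mmp9 (-0.68). The median log2 fold change was 1.93 for adipocyte and 1.02 for skeletal muscle markers, against 0.59 for leukocyte markers. Socs1, Ptprc, Ptpn6, Il10ra, Csf2ra and Ciita can all be expressed by leukocytes, and the part of cell content in their levels was not tested. In bulk tissue, fewer cells of a type and less RNA per cell cannot be told apart. The labelled carcinoma was checked against 8 epithelial markers. Epcam, Vil1, Krt8 and Krt18 were too low to be tested, at no more than 0.709 CPM in a tumor, and Krt20 was present at 12.7 to 75.3 CPM. The 4 tested had lower estimates in responders, 3 of them with an unadjusted edgeR p under 0.05, and none passed. The summed level over all 8 was 17.5 to 42.1 CPM in responders against 40.3 to 84.8 CPM in non-responders.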

How the data were processed

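PolyA RNA was sequenced from 10 CT26 tumors, grouped by the response given in the labels and numbered in accession order, so that numbers do not pair tumors. The labels give no batch. The authors checked reads with FastQC, estimated transcript abundance with kallisto and summed it to genes with tximport on mm10 (GRCm38), and the deposited values are estimated counts, which were fractional for 45.1% of values and whose totals differ between tumors. The tximport scaling, the strand setting and the release of the annotation are not given in the sources used here. Of the rows, 9633 had no gene name (1.04% to 1.23% of a tumor's counts) and stayed in the fit. Kallisto splits reads between transcripts with shared sequence, which makes overlapping genes uncertain.

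Counts were rounded and fitted in R 4.3.3 with edgeR 4.0.16 (filterByExpr with a minimum count of 10 and a minimum total of 15, TMM, glmQLFit and glmQLFTest, two-sided), responders against non-responders, with Benjamini-Hochberg adjustment over 16041 genes and a threshold of 0.05. Standard errors were taken from F, as the size of the log2 fold change over the root of F. The log2 CPM used a prior count of 2. Correlations used 100000 permutations over 10 tumors and all permutations within responders. Alternatives were RLE and upper-quartile scaling, DESeq2 1.42.0, limma-voom (limma 3.58.1), no filter, each tumor left out, the longest transcript as length, and a prior count of 0.5. The fit was tested on simulated data. Replicates are separate tumors. Coordinates and exon lengths are from GENCODE M21 on GRCm38, and promoters from RefSeq on GRCm38.p6.

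The members, the pathway lists and the markers were chosen with earlier results of these data known. The text names all 8 members, each pathway gene that passed (at most 6 a list), the pair with the smallest p in lists where none passed, pathway genes named in any case (Ifng, Il6, Ifngr1, Il6st, Jak1, Jak2, Stat3, Stat5a, Stat5b, Ptpn2, Usp18, Cul5 and Irf1), and the 3 genes most like each cytokine-induced member. An item that the rule also names, and the results that need it, are not reported here, while counts over all pathway genes include it.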

Additional observations from a re-analysis of the deposited data

Results flagged for a closer look

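In 24 sets of values (the 8 members, and differences of feedback genes from their targets, in each group), a tumor that stood away from its own group was sought by the gap to its nearest neighbor as a share of the group's range. It was found in 3, where about 1.2 would be found by chance. Socs1 in non-responder 1 was low, at 2.55 log2 CPM against 3.53 to 3.68 in the other 3, a gap of 0.870 of the range. Socs7 in the same tumor was high, at 5.84 against 5.69 to 5.70 log2 CPM, a gap of 0.949 of the range. Socs4 in responder 3 was low, at 5.52 against 5.64 to 5.70 log2 CPM in the other 5, a gap of 0.640 of the range.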

How the results depend on the processing

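No paired analysis was possible because the tumors' numbers are in accession order and the labels pair no tumors. Under the 15 alternative fits, edgeR with other scalings, without the filter or without any one tumor passed 0 members, as did limma-voom, and DESeq2 passed 1 (Socs1). Leaving out a tumor gave 1 to 3 members with an unadjusted p under 0.05, and 1 only without non-responder 1. DESeq2 passed 32 pathway genes and 2580 of all genes, against 12 and 1293 by edgeR, and leaving out 1 tumor gave 0 to 21 and 0 to 1897. Without non-responder 4, where both counts were 0, 41 pathway genes and 4106 genes had an unadjusted p under 0.05. The cause was not tested. The direction of Socs1, Socs3, Socs5, Socs6 and Socs7 was the same in all 15. Leaving out 1 tumor gave log2 fold changes of -0.16 to 0.12 for Socs2, -0.0040 to 0.058 for Socs4 and -0.065 to 0.19 for Cish. No scaling moved the median of all genes by more than 0.1 on the log2 scale. Per kb of the longest transcript, Socs2 was 1.88, Socs5 35.4, Socs6 8.72 and Cish 2.64 CPM. Differences of feedback genes from their targets were within 1 SD under either alternative. With 6 and 4 tumors, intervals of Socs1, Socs2 and Cish are wide.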
